A study of Mus musculus with 6 samples.

Results

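Open chromatin of mouse intestinal organoids was compared between arachidonic acid (AA, 25 µM) and prostaglandin E2 (PGE2, 50 nM), each given for 3 days, with 2 ATAC-seq libraries per treatment and 2 vehicle libraries beside them. ATAC-seq uses a transposase that inserts sequencing adapters into accessible DNA, and the deposited values are read counts over a common set of peaks. All 88965 of 90823 peaks that lie on chromosomes 1 to 19 were taken as members. They were divided by position into 16158 gene-end peaks, whose centre lay within 1 kb of an annotated end or a listed start site of a protein-coding gene, and 72807 distal peaks. After a filter on low counts 87515 of these peaks were tested, 15971 at gene ends and 71544 distal. Every group grew from crypts in Matrigel, in a medium with EGF, Noggin, R-spondin, the GSK3 inhibitor CHIR-99021 and the ROCK inhibitor Y-27632, so that Wnt and growth factor signals were supplied to vehicle, AA and PGE2 cultures alike. Epithelial cells were sorted before the transposase reaction. The series' design text names a dimethyl form of PGE2 and the treatment protocol names PGE2, so the compound is called as labelled. The doses of the agents differ and each was used at 1 dose, so compound and dose cannot be told apart. Whether the 2 libraries of a group came from separate cultures is not stated, and p-values measure only the spread between these libraries, which may be technical.

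AA is a polyunsaturated fatty acid stored in membrane phospholipids and released by phospholipase A2 enzymes. Cyclooxygenases and prostaglandin E synthases convert it to PGE2, which acts on G protein-coupled receptors of the Ptger family, some of which raise cyclic AMP and activate the transcription factor CREB. AA is also a substrate of lipoxygenases and cytochrome P450 enzymes, and fatty acids are ligands of the nuclear receptors called PPARs. In gut epithelium PGE2 is known for roles in repair and in crypt growth. A peak's count in such a bulk library reflects both how open a region is per cell and how many cells have it open, and these cannot be told apart.

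The promoters below, picked as examples, show the contrast in base composition that runs through the gene-end results. The first pair, of Pdk4 and Isx, lies under start-site peaks that were higher with AA. The others, of Clk3, Zfp664, Gab1 and Stt3b, lie under start-site peaks that were lower with AA. Each is the 250 bases before the start site, read 5′ to 3′ on the gene's strand from RefSeq (GRCm38.p6), and capitals mark CpG dinucleotides.
Pdk4, chr6:5496279-5496528, minus strand: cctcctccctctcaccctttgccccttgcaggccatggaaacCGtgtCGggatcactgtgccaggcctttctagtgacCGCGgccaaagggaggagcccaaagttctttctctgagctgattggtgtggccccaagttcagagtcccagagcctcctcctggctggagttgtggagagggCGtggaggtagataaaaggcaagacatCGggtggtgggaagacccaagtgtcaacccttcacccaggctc
Isx, chr8:74872924-74873173, plus strand: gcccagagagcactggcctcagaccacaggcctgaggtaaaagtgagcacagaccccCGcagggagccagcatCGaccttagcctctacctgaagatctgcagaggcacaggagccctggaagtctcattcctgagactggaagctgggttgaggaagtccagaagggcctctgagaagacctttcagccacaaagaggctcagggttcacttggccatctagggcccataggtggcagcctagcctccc
Clk3, chr9:57765115-57765364, minus strand: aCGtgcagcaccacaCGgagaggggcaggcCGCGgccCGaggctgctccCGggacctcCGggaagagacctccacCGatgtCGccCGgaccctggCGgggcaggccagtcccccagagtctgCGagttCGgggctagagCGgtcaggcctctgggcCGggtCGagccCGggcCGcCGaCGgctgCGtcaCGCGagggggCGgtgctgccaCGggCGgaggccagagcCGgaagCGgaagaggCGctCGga
Zfp664, chr5:124862455-124862704, plus strand: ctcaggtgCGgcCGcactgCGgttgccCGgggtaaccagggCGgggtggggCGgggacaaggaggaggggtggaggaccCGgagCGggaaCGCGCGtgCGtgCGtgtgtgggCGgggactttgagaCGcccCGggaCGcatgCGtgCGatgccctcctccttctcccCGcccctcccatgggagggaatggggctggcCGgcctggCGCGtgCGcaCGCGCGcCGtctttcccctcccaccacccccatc
Gab1, chr8:80880480-80880729, minus strand: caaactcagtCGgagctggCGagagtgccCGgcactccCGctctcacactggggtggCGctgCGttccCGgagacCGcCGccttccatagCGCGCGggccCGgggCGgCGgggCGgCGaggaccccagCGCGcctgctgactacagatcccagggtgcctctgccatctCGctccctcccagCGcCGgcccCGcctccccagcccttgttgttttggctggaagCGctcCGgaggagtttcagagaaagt
Stt3b, chr9:115310469-115310718, minus strand: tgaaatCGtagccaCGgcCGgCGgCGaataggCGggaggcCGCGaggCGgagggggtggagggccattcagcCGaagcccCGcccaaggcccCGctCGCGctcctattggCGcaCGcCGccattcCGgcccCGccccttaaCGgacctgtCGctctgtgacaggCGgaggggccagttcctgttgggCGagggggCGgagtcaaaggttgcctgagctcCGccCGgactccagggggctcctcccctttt
The number of CpG dinucleotides in these 250 bases was 6 for Pdk4 and 2 for Isx. It was 30 for Clk3, 28 for Zfp664, 25 for Gab1 and 26 for Stt3b.

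Called gene-end and distal peaks leaned in opposite directions between the treatments. A peak is called here when edgeR's quasi-likelihood test gave a Benjamini-Hochberg adjusted p under 0.05, with adjustment over all 89347 tested peaks of the table. Over all autosomal peaks 8764 (10%) were called, 4450 higher with AA (5.08%) and 4314 lower (4.93%). At gene ends 255 peaks were higher with AA (1.6%) and 2724 lower (17.1%), 18.7% in all. Among distal peaks 4195 were higher (5.86%) and 1590 lower (2.22%), 8.09% in all. Gene-end peaks thus made up 63.1% of the peaks lower with AA, 5.73% of those higher and 18.2% of all tested. The median log2 difference, AA minus PGE2, was -0.12 at gene ends, 0.02 at distal peaks and -0.01 over all autosomal peaks. Most differences were modest: at least 2-fold were 17 higher and 134 lower gene-end peaks and 316 higher and 166 lower distal peaks. The 2 AA libraries and the 2 PGE2 libraries did not overlap at any of the 8764 called peaks, and they did not overlap at 52.0% of all tested ones. When gene-end and distal peaks were scaled apart, the gene-end calls became 1178 higher and 1610 lower, with a median of -0.0067, since such scaling centres each class. DESeq2 called 8 gene-end peaks higher and 300 lower, and 221 distal peaks higher and 51 lower.

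**Figure D1:**
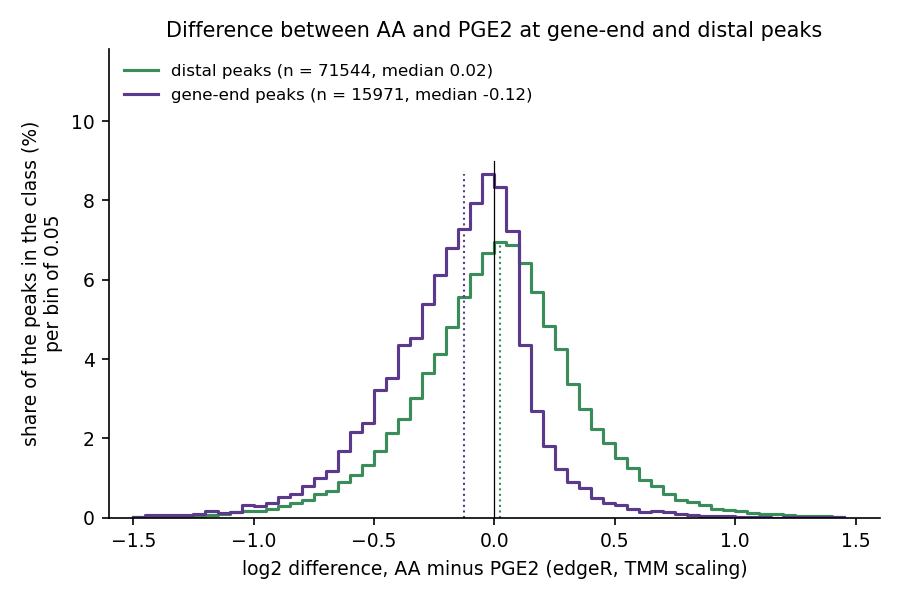
Distribution of the log2 difference, AA minus PGE2, over 15971 gene-end and 71544 distal peaks. The x axis is the log2 difference, the y axis the share of each class per bin in percent, and dotted lines mark the medians of -0.12 and 0.02. The gene-end curve lies to the left of the distal curve.

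The share of autosomal counts that fell in gene-end peaks gives the same contrast without any scaling between libraries. It was 36.2% and 36.8% in the AA libraries, 38.4% and 40.1% in the PGE2 libraries and 35.7% and 35.2% in the vehicle libraries. Both PGE2 libraries were above both AA libraries, and both AA libraries above both vehicle libraries. The means were 36.5% ± 0.41 with AA and 39.3% ± 1.2 with PGE2 (SD, n = 2), a difference of -2.79 percentage points. An exact two-sided permutation test gave p = 0.333, the smallest value that 2 libraries against 2 allow. Start-site peaks took 28.5% and 29.1% of counts with AA and 30.4% and 31.9% with PGE2. PGE2 replicate 2 stood farthest out: the median log2 difference of gene-end peaks between PGE2 replicate 1 and replicate 2 was -0.07, against -0.03 between the AA libraries and 0.02 between the vehicle libraries. Over the 4 pairs of 1 AA and 1 PGE2 library, the gene-end median ran from -0.07 to -0.15. The distal median ran from 0.01 to 0.03. Both were taken on log2(CPM + 0.5). CPM is, here and below, the count scaled to the library's total multiplied by its TMM normalization factor (0.969 to 1.02). The count of gene-end peaks lower with AA depended on single libraries, and was 716 without AA replicate 1, 1570 without AA replicate 2, 4450 without PGE2 replicate 1 and 1280 without PGE2 replicate 2. Distal peaks higher with AA numbered 1819, 1734, 3264 and 3117 in the same order.

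**Figure D2:**
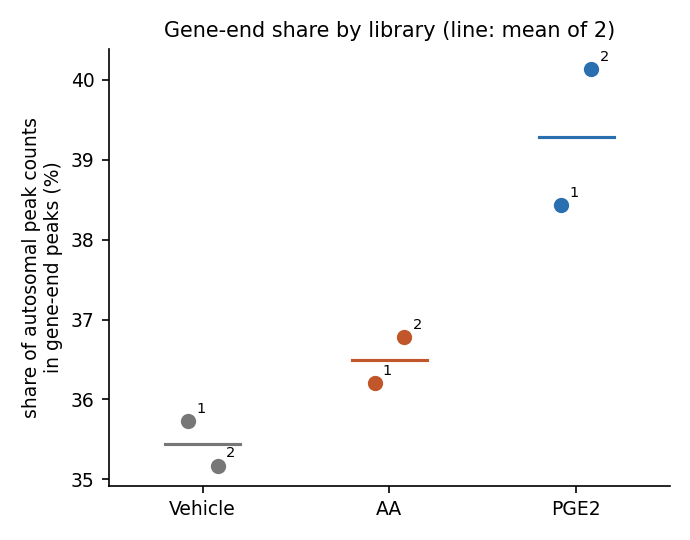
Share of autosomal peak counts in gene-end peaks, in percent, for each library. Points are libraries, numbered by replicate, lines are means of 2, and the y axis does not start at 0. The PGE2 libraries lie at 38.4% and 40.1%, above the other 4 libraries.

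Listed start sites had the larger share of peaks lower with AA. Of 11079 peaks within 1 kb of a listed start site, 143 were higher with AA and 2119 lower (1.29% and 19.1%), with a median log2 difference of -0.14. The 4892 peaks at other gene ends had 112 higher and 605 lower (2.29% and 12.4%) and a median of -0.09. The list of start sites is not complete and holds none on chromosome 18, so peaks at unlisted start sites stand among these other gene ends. The difference was larger at peaks centred somewhat off the start: 16.8% of peaks within 100 bp were lower with AA, 20.3% of those at 101 to 250 bp, 23.1% of those at 251 to 500 bp and 15.9% beyond that. It also went with width, since 24.6% of gene-end peaks of 1001 to 2000 bp and 33.0% of the 637 wider ones were lower with AA, against 2.37% of those up to 300 bp. The medians were -0.15 and -0.20 in these wide classes and between -0.08 and -0.12 in the 3 narrower ones. Autosomal peaks were also divided into 5 classes of equal size by mean CPM. From weakest to strongest, 4.65%, 8.21%, 13.8%, 20.8% and 20.0% of their gene-end members were lower with AA. The medians were -0.23, -0.17, -0.16, -0.17 and -0.09, so the strongest class had the smallest median difference. All 19 chromosomes had a negative gene-end median, from -0.07 on chromosome 7 to -0.16 on chromosome 16.

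Distal peaks inside and outside genes were alike. Inside genes 2125 were higher with AA and 877 lower of 37253 (5.7% and 2.35%), and outside genes 2070 and 713 of 34291 (6.04% and 2.08%), with medians of 0.02 in both. Close to genes the balance differed: of 4182 distal peaks at 1001 to 2000 bp from a gene end, 174 were higher and 191 lower, and of 8939 at 2001 to 5000 bp, 457 were higher and 216 lower. Beyond 100 kb 566 were higher and 200 lower of 8543. Over 5 classes of equal size by mean CPM, the strongest had 14.5% of its distal members higher and 4.14% lower with AA, and the weakest 1.17% and 0.598%. The gene lists below were not matched for strength to the peaks they are set beside, and its part in their shares was not tested. The distal median was negative on chromosome 17 and positive on the other 18 autosomes. Its sign as a whole rested on the scaling, because with normalization factors taken from distal peaks alone, or from each class apart, it was -0.0027 and -0.0093.

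Among start-site peaks, those at CpG-rich promoters were the ones more often lower with AA. A promoter sequence (250 bases before to 50 after the start, RefSeq) was at hand for 9923 of the tested start-site peaks, and these were divided into 4 classes of equal size by the CpG observed/expected ratio. From the CpG-poorest to the CpG-richest class, 7.09%, 17.4%, 25.3% and 31.2% were lower with AA, and 102, 12, 3 and 4 peaks were higher. The median log2 differences were -0.02, -0.11, -0.17 and -0.25. With classes scaled apart the medians were 0.09, 0.01, -0.05 and -0.13, so the order remained while the sign of the first 2 classes turned. The 4 AA and PGE2 library pairs each ran the same way. The pair of replicates 1 went from -0.015 to -0.16 and the pair of replicates 2 from -0.028 to -0.30. AA replicate 1 minus PGE2 replicate 2 went from -0.024 to -0.35, and AA replicate 2 minus PGE2 replicate 1 from -0.024 to -0.10. The 2 PGE2 libraries also differed along this axis, from -0.022 in the CpG-poorest class to -0.19 in the CpG-richest (replicate 1 minus replicate 2), and the AA libraries from 0.0031 to -0.05. In the CpG-richest class the 2 pairs with PGE2 replicate 1 differed less (-0.16 and -0.10) than the 2 PGE2 libraries did (-0.19). The part of this spread between libraries in the gradient was not tested.

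**Figure D3:**
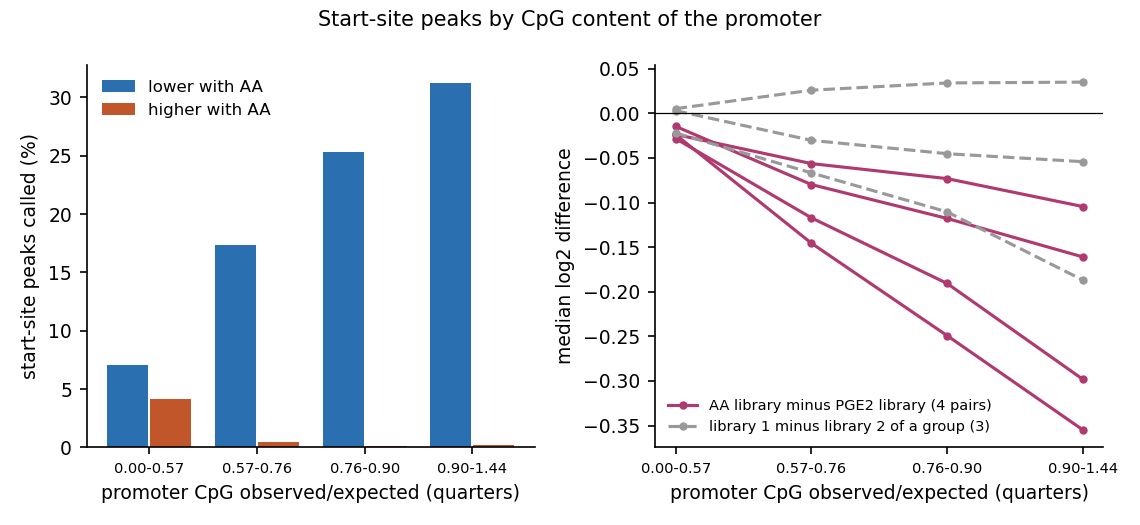
Start-site peaks by CpG observed/expected ratio of the promoter, in 4 classes of about 2480 peaks. The left panel gives the percent called in each direction, and the right panel the median log2 difference for the 4 pairs of an AA and a PGE2 library (solid) and for the 2 libraries within a group (dashed). The percent lower with AA rises from 7.09% to 31.2%, and the lowest dashed line, that of the PGE2 libraries, reaches -0.19.

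Motifs were counted in the same windows, on both strands, and a match is a description of letters only. The GC box (GGGCGG), the binding motif of Sp-family factors, was in 79.4% of the 2010 promoters under peaks lower with AA, 64.2% of the 7792 under peaks not called, 32.2% of the 121 under peaks higher with AA and 35.7% of all 32851 listed promoters. The AP-1 motif (TGANTCA), bound by Fos and Jun proteins, ran the other way, at 2.54%, 5.62%, 21.5% and 7.81% in the same order. So did the GATA motif (AGATAA), bound by gut identity factors, at 3.08%, 6.55%, 18.2% and 11.2%. The cyclic AMP response element (TGACGTCA) was in 3.23%, 3.40%, 2.48% and 1.79%. The median GC content was 67.7% under peaks lower with AA, 60.3% under those not called and 53.0% under those higher. In the same order of lower, not called, higher and all promoters, the CCAAT box (CCAAT) was in 32.1%, 40.0%, 38.8% and 37.4%, and the ETS motif (CCGGAA) in 26.1%, 27.3%, 10.7% and 14.9%. The E-box (CACGTG) was in 11.2%, 10%, 3.31% and 7.15%, the TEAD motif (GGAATG) in 9.35%, 11.8%, 17.4% and 14.7%, and the HNF4-type motif (CAAAGTCCA) in 0.348%, 0.526%, 1.65% and 0.475%. The GC box holds a CpG, so its share moves with CpG content.

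The vehicle libraries show on which side of the untreated state each set lay. For the 2724 gene-end peaks lower with AA than with PGE2, the median difference from vehicle was 0.14 with AA and 0.58 with PGE2 (log2). For the 4195 distal peaks higher with AA, it was 0.65 with AA and 0.14 with PGE2. The 1590 distal peaks lower with AA had medians of -0.44 with AA and 0.10 with PGE2, and the 255 gene-end peaks higher with AA 0.30 and -0.05. Over all tested peaks the medians were 0.06 and 0.14 at gene ends and -0.04 and -0.04 at distal peaks. Both columns share the vehicle libraries, and the sets were chosen by the AA and PGE2 values, so these medians describe the sets and carry no test.

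Genes of fat handling were prominent among the peaks higher with AA than with PGE2. Pdk4 encodes a kinase that restrains pyruvate dehydrogenase and is a well-known PPAR target. Its start-site peak (chr6:5495945-5496780) held 14.5 and 13.6 CPM with AA, 5.42 and 5.63 with PGE2 and 11.9 and 12.1 with vehicle. AA was thus close to vehicle and PGE2 far below both, with no overlap. The log2 difference between AA and PGE2 was 1.35 (SE 0.13, adjusted p = 1.63e-08, edgeR), a 2.55-fold difference. The other tested Pdk4 peak, 13572 bp from the gene, had 17.4 and 17.5 CPM with AA, 8.55 and 6.71 with PGE2 and 12.9 and 13.7 with vehicle (log2 1.19, SE 0.12, adjusted p = 3.40e-08, edgeR). Fabp1 encodes the liver-type fatty acid binding protein of enterocytes. A peak 14676 bp from it held 16.5 and 16.5 CPM with AA, 10.1 and 9.88 with PGE2 and 19.7 and 19.5 with vehicle (log2 0.72, SE 0.11). Here AA lay slightly and PGE2 well below vehicle.

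Of 143 distal peaks at genes of PPAR targets and fatty acid oxidation, 23 were higher with AA and 3 lower (16.1% and 2.10%, against 5.86% and 2.22% of all distal peaks), with a median of 0.13 against 0.02. The genes with calls included Fabp1 (3 of 4 peaks higher), Cd36, a fatty acid carrier (2 of 5), Hadhb, a subunit of the mitochondrial trifunctional protein (3 of 7), and Pparg (3 of 15). Acot1, a thioesterase, had 2 of 4 peaks lower. At gene ends 3 of 34 peaks of the list were higher and 2 lower (10 and 1 with classes scaled apart). These shares were 8.82% and 5.88%, against 1.6% and 17.1% of all gene-end peaks. Of 147 distal peaks of absorptive enterocyte genes, 21 were higher and 1 lower, with a median of 0.14. Among them were Rbp2, a retinol binding protein (3 of 9 peaks, all positions counted), the glucose transporters Slc5a1 (3 of 12) and Slc2a2 (2 of 8), and Krt20, a keratin of differentiated cells (2 of 7). Without AA replicate 1 the distal counts were 11 higher and 1 lower for the PPAR list and 9 and 0 for enterocyte genes, and without AA replicate 2 they were 12 and 0, and 11 and 0. Against vehicle, the distal median of the PPAR list was -0.03 with AA and -0.20 with PGE2. That of enterocyte genes was -0.09 and -0.18, and that of all distal peaks -0.04 and -0.04. By these medians neither list lay above vehicle with AA. The 2 lists share Fabp1 and Fabp2.

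Intestinal transcription factor genes had several loci with many called peaks. Isx, an intestine-specific homeobox factor that restrains vitamin A uptake, had 6 of 10 peaks higher with AA and none lower. Its start-site peak (chr8:74871583-74873621) held 64.8 and 63.7 CPM with AA, 43.8 and 43.6 with PGE2 and 34.9 and 35.5 with vehicle. The 3 groups did not overlap, and AA stood farther above vehicle than PGE2 did. The log2 difference was 0.56 (SE 0.06, adjusted p = 2.65e-07, edgeR). A peak 27935 bp from Isx held 38.7 and 42.3 CPM with AA and 25.0 and 25.2 with PGE2, with 28.4 and 30.1 in vehicle (log2 0.69, SE 0.08). Hnf4g, a nuclear receptor of enterocytes, had 6 of 12 peaks higher, and Gata4, a factor of proximal gut, 4 of 21. Foxa1 had 2 of 12 lower, among them its start-site peak with 11.2 and 11.2 CPM under AA, 16.3 and 18.1 under PGE2 and 9.95 and 11 in vehicle (log2 -0.62, SE 0.11). DESeq2 did not call this Foxa1 peak (adjusted p = 0.0662). Over the whole list 23 distal peaks were higher and 12 lower of 251. These shares were 9.16% and 4.78%, against 5.86% and 2.22% of all distal peaks. Fewer were called in both directions when either AA library was left out. The list's distal median was 0.055 with all libraries, 0.057 without AA replicate 1 and 0.050 without AA replicate 2.

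**Figure D4:**
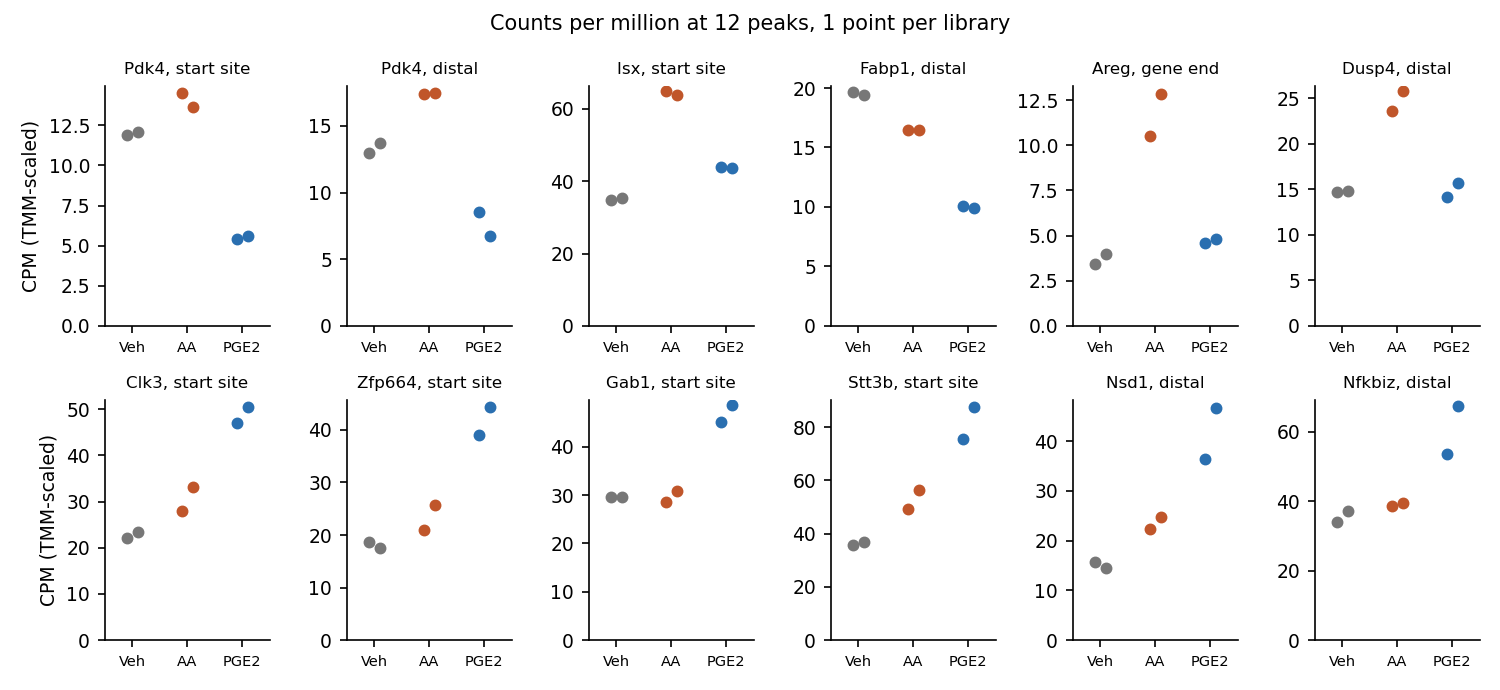
CPM at 12 peaks, with 1 point per library and each y axis starting at 0. In the top row the AA libraries lie above the PGE2 libraries, and in the bottom row they lie below. The Pdk4 start-site panel shows AA at 14.5 and 13.6 and PGE2 at 5.42 and 5.63.

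Fetal and regenerative genes, which mark the developing gut and repair after injury, also had more peaks higher with AA. Of 131 distal peaks 26 were higher and 1 lower (19.8% and 0.763%, against 5.86% and 2.22% of all distal peaks). Of 33 gene-end peaks 6 were higher and none lower (18.2% and 0%, against 1.6% and 17.1% of all gene-end peaks). Among these gene-end peaks 11 higher and 0 lower had an unadjusted p under 0.05, and DESeq2 called 1 and 0. The gene-end median was 0.14, against -0.12 for all gene-end peaks. Against vehicle, the list's distal median was 0.34 with AA and 0.24 with PGE2, and its gene-end median 0.32 and 0.31. Those of all distal peaks were -0.04 and -0.04, and those of all gene-end peaks 0.06 and 0.14. By these medians the list lay above vehicle with both agents. Areg, a ligand of the epidermal growth factor receptor, had 5 of 10 peaks higher. The one 944 bp from an end of the gene (chr5:91148719-91150033) held 10.5 and 12.8 CPM with AA, 4.58 and 4.78 with PGE2 and 3.45 and 3.97 with vehicle. Its log2 difference was 1.30 (SE 0.15, adjusted p = 2.65e-07, edgeR), with AA far above the other 4 libraries. Anxa10 had 3 of 4 peaks higher, Plaur, the urokinase receptor, 3 of 7, Il1rn 3 of 8 and Il33 2 of 6. Ereg, another ligand of that receptor, had 3 of 9 higher and 1 lower. Without AA replicate 1 the distal count was 12 higher and 0 lower, and without AA replicate 2 13 and 0.

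ERK feedback genes, which encode phosphatases and inhibitors induced by growth factor signalling, had more distal peaks higher with AA. Of 127 distal peaks 22 were higher and 3 lower (17.3% and 2.36%, against 5.86% and 2.22% of all distal peaks). Of 20 gene-end peaks 1 was higher and 5 lower (5% and 25%, against 1.6% and 17.1% of all gene-end peaks), so the contrast by position was also that of all peaks. The gene-end counts were 2 and 4 with classes scaled apart, 0 and 8 without PGE2 replicate 1 and 0 and 3 without PGE2 replicate 2. Dusp4, a phosphatase of ERK-type kinases, had 4 of 9 peaks higher. One of these, 46692 bp from the gene, held 23.6 and 25.8 CPM with AA, 14.1 and 15.7 with PGE2 and 14.7 and 14.8 with vehicle (log2 0.72, SE 0.10, adjusted p = 6.54e-06, edgeR). PGE2 overlapped vehicle there and AA was above both. Dusp10 had 3 of 4 peaks higher, with 4.22 and 3.34 CPM under AA, 1.14 and 1.23 under PGE2 and 0.766 and 0.610 in vehicle at one 9353 bp away (log2 1.67, SE 0.28). Errfi1, an inhibitor of the epidermal growth factor receptor, had 6 of 15 higher. The start-site peak of Etv5, an ETS factor downstream of ERK, went the other way, with 74.7 and 77.7 CPM under AA against 88.5 and 102 under PGE2 (log2 -0.33, SE 0.06, adjusted p = 0.000296, edgeR; DESeq2 adjusted p = 0.110). The distal count of higher peaks was 11 without AA replicate 1, 13 without AA replicate 2, 15 without PGE2 replicate 1 and 17 without PGE2 replicate 2.

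AP-1 and immediate early genes had 13 distal peaks higher and 7 lower of 113 (11.5% and 6.19%), and those of NF-kB signalling and epithelial defence 11 and 2 of 113 (9.73% and 1.77%), against 5.86% and 2.22% of all distal peaks. DESeq2 called 1 higher and 0 lower of the former and 0 higher and 1 lower of the latter. Klf6, a zinc finger factor, had 6 of 17 peaks higher, Atf3, a stress-induced factor, 4 of 11, and Ier3, an early response gene, 3 of 7. Myc had 2 of 13 lower. Ccl20, an epithelial chemokine, had a peak 972 bp from its end with 7.18 and 7.83 CPM under AA, 3.43 and 3.47 under PGE2 and 3.6 and 4.27 in vehicle (log2 1.11, SE 0.18, adjusted p = 4.09e-05, edgeR). The AA libraries stood above the other 4, which lay between 3.43 and 4.27 CPM. A peak inside Nfkbiz, a nuclear regulator of NF-kB, was lower with AA at 38.6 and 39.5 CPM against 53.7 and 67.4, with 34.0 and 37.1 in vehicle (log2 -0.63, SE 0.09). Without AA replicate 1 the distal counts were 4 higher and 2 lower for NF-kB genes and 6 and 2 for AP-1 genes, and without AA replicate 2 they were 2 and 1, and 7 and 4. Without PGE2 replicate 2 they were 6 and 2, and 10 and 0.

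Gene-end peaks lower with AA were led by start sites that stood highest under PGE2. Clk3 encodes a kinase that phosphorylates splicing factors, and its start-site peak (chr9:57764295-57766121) held 28.0 and 33.1 CPM with AA, 47.0 and 50.5 with PGE2 and 22.2 and 23.3 with vehicle (log2 -0.68, SE 0.08, adjusted p = 2.65e-07, edgeR). The order was vehicle, AA, PGE2 without overlap. Zfp664, a zinc finger protein gene (chr5:124862059-124863726), held 21.0 and 25.8 CPM with AA, 39.1 and 44.3 with PGE2 and 18.8 and 17.5 with vehicle (log2 -0.84, SE 0.09, adjusted p = 1.56e-07, edgeR). At Gab1, a docking protein of receptor tyrosine kinases (chr8:80878838-80881005), AA at 28.5 and 30.9 CPM overlapped vehicle at 29.6 and 29.5, and PGE2 stood apart at 45.0 and 48.6 (log2 -0.66, SE 0.08). Stt3b, a catalytic subunit of the oligosaccharyltransferase (chr9:115309608-115311439), held 49.2 and 56.2 CPM with AA, 75.6 and 87.5 with PGE2 and 35.8 and 36.9 with vehicle (log2 -0.63, SE 0.07). Zfp131 had the smallest p of the lower gene-end peaks named, with 38 and 39.5 CPM against 57.3 and 61.9 (log2 -0.62, SE 0.07, adjusted p = 1.27e-07, edgeR). Sod2, the mitochondrial superoxide dismutase, had 30.1 and 35.3 CPM with AA, 46.5 and 48.6 with PGE2 and 26.7 and 28.2 with vehicle (log2 -0.54, SE 0.08). The promoters of this paragraph printed above were picked as examples. By CpG observed/expected ratio, Zfp664 lies in the CpG-richest class of start-site peaks and Clk3, Gab1 and Stt3b in the next.

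RNA splicing genes had 18 of 39 gene-end peaks lower with AA and none higher (46.2%, against 17.1% of all gene-end peaks), with a median of -0.23. None had an unadjusted p under 0.05 in the higher direction, and DESeq2 called 0 higher and 3 lower. The genes included the SR proteins Srsf1, Srsf2, Srsf3, Srsf5, Srsf6, Srsf7, Srsf10 and Srsf11, the U2 factor subunits U2af1 and U2af2, and Tra2a and Tra2b. The count fell to 6 without AA replicate 1, 7 without AA replicate 2 and 5 without PGE2 replicate 2, and with classes scaled apart it was 6 lower and 2 higher. The cAMP and CREB target list, the pathway of the PGE2 receptors that raise cyclic AMP, had 14 gene-end peaks lower and 2 higher of 42 (median -0.18). These shares were 33.3% and 4.76%, against 17.1% and 1.6% of all gene-end peaks. Lower were gene-end peaks of Crtc1 and Crtc3, coactivators of CREB, of Creb1, of the kinase subunit genes Prkaca and Prkacb, and of the nuclear receptor genes Nr4a2 and Nr4a3. At the Crtc1 start site AA gave 13.8 and 16.0 CPM, PGE2 21.7 and 22.8 and vehicle 13.2 and 13.0 (log2 -0.58, SE 0.10, adjusted p = 0.000157, edgeR; DESeq2 adjusted p = 0.0558). Distal peaks of that list had 12 higher and 4 lower of 153 (7.84% and 2.61%), near the 5.86% and 2.22% of all distal peaks. Fewer were called when either AA library was left out. The list's distal median was 0.036 with all libraries, 0.019 without AA replicate 1 and 0.098 without AA replicate 2. Without AA replicate 1 its gene-end counts were 2 lower and 1 higher, and with classes scaled apart 10 and 6.

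YAP and TEAD targets had 9 of 28 gene-end peaks lower and none higher (32.1% and 0%, against 17.1% and 1.6% of all gene-end peaks). At an unadjusted p under 0.05 by edgeR 1 was higher, and DESeq2 called 0 in either direction. Among the lower peaks were both called peaks of Tead3 and a Tead4 gene-end peak. The Tead4 peak held 44.3 and 41.9 CPM under AA and 50.2 and 58.3 under PGE2 (log2 -0.33, SE 0.07). Leaving out PGE2 replicate 2 ended the Tead4 call (adjusted p = 0.0730, edgeR), as did DESeq2 (adjusted p = 0.178). The list's count fell to 3 without AA replicate 1, 2 without AA replicate 2 and 4 without PGE2 replicate 2 or with classes scaled apart. Distal peaks of YAP and TEAD targets had 4 higher and 4 lower of 146 (2.74% each, against 5.86% and 2.22% of all distal peaks). Proliferation genes had 6 of 25 gene-end peaks lower (24.0%) and ribosomal protein genes 8 of 50 (16.0%), against 17.1% of all gene-end peaks. Both counts were 0 without AA replicate 1, they were 2 and 4 without AA replicate 2, 3 and 3 without PGE2 replicate 2, and 7 and 14 without PGE2 replicate 1, and with classes scaled apart they were 1 lower and 2 higher, and 2 lower and 1 higher, with medians of 0.02 and 0.01. Secretory pathway and unfolded protein genes had 6 of 42 gene-end peaks lower (14.3%) and 7 of 121 distal peaks higher (5.79%), both near the 17.1% and 5.86% of their classes. The gene-end counts were 15 lower without PGE2 replicate 1, and 6 higher and 4 lower with classes scaled apart, and 3 distal peaks were higher without AA replicate 2. A peak 1758 bp from Hspa5, the chaperone BiP, held 16.5 and 16.3 CPM with AA, 9.08 and 9.57 with PGE2 and 6.97 and 7.63 with vehicle (log2 0.81, SE 0.12, adjusted p = 1.27e-05, edgeR).

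**Figure D5:**
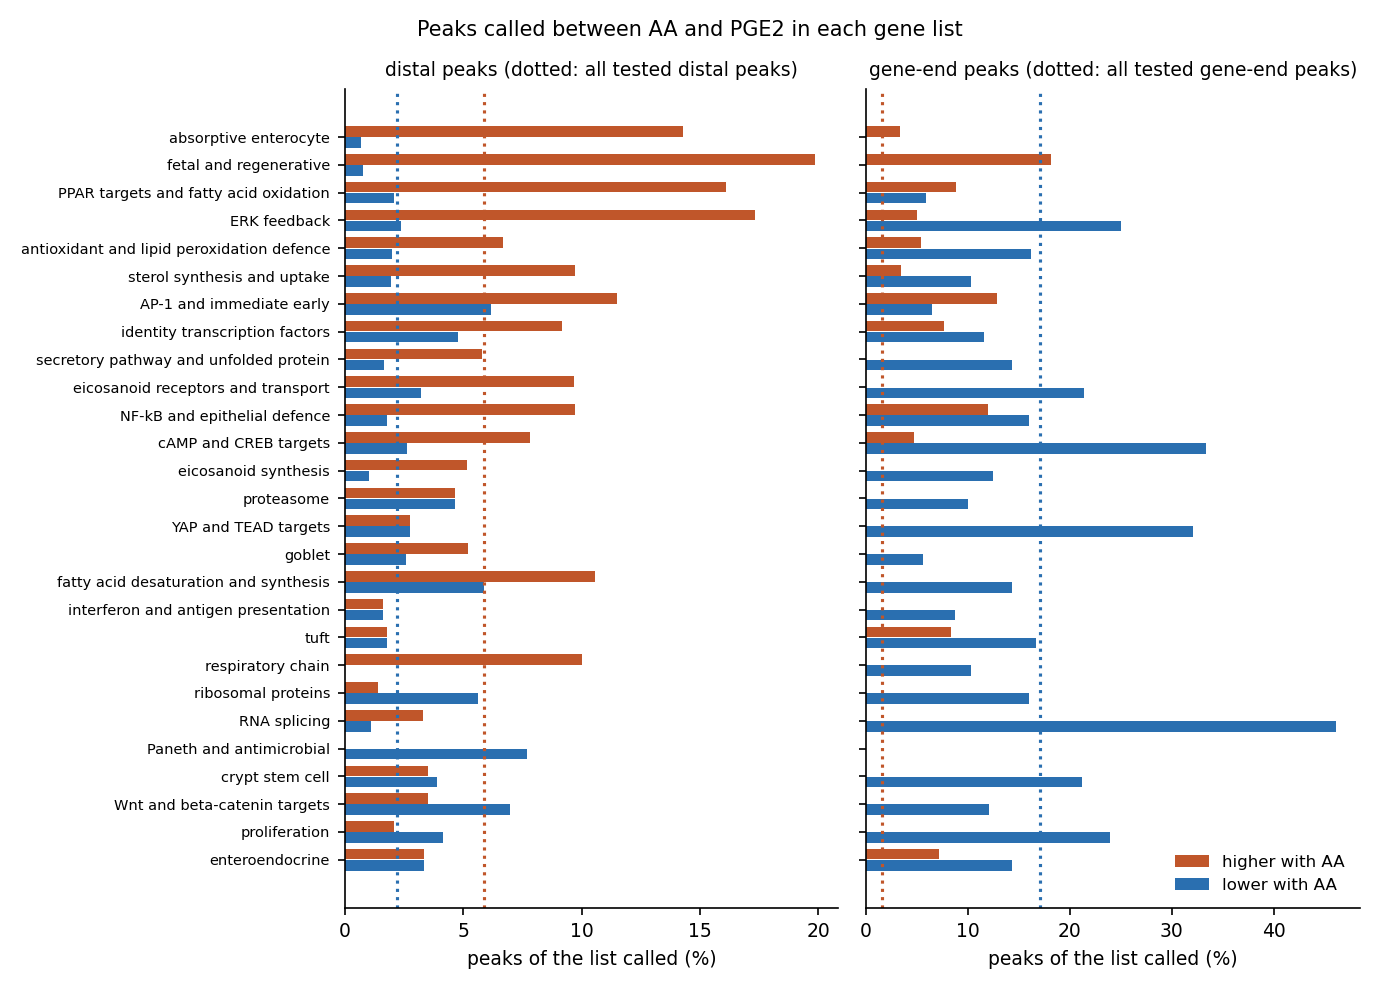
Percent of each gene list's peaks called higher (orange) or lower (blue) with AA, for distal peaks on the left and gene-end peaks on the right. Dotted lines are the shares over all tested peaks of the class, 5.86% and 2.22% for distal and 1.6% and 17.1% for gene-end peaks. Among the lists drawn, fetal and regenerative genes have the largest share called higher in both panels. RNA splicing has the largest share called lower at gene ends. Other lists exceed these lines too.

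Genes that make, break down, carry or sense eicosanoids were described across all their peaks, since AA is the substrate and PGE2 a product of this pathway. For the 20 synthesis and breakdown genes 5 peaks were higher with AA and 3 lower of 113, and for the 14 receptor and transport genes with a tested peak 6 and 5 of 76. These shares (4.42% and 2.65%, and 7.89% and 6.58%) are near the 5.08% and 4.93% of all autosomal peaks. Of distal peaks, synthesis genes had 5 higher and 1 lower of 97 (5.15% and 1.03%). Receptor and transport genes had 6 and 2 of 62 (9.68% and 3.23%), against 5.86% and 2.22% of all distal peaks. At gene ends none was higher, and 2 of 16 (12.5%) and 3 of 14 (21.4%) were lower, against 17.1% of all gene-end peaks. Pla2g4a, the phospholipase that releases AA, had a start-site peak with 16.5 and 16.7 CPM under AA, 20.5 and 21.6 under PGE2 and 22.7 and 23.4 in vehicle (log2 -0.34, SE 0.10, adjusted p = 0.0196, edgeR). That call was lost without AA replicate 1, AA replicate 2 or PGE2 replicate 2 (adjusted p = 0.157, 0.0973 and 0.113), and with classes scaled apart (adjusted p = 0.151). The cyclooxygenase genes Ptgs1 and Ptgs2 had no called peak among 5 each, with log2 differences from -0.40 to 0.15 and from -0.24 to 0.69. Ptges, the inducible prostaglandin E synthase, had none among 6. The start-site peak of Ptges3, the cytosolic synthase and Hsp90 cochaperone, had 42.2 and 41.9 CPM under AA, 53.0 and 66.8 under PGE2 and 37.3 and 32.7 in vehicle (log2 -0.51, SE 0.09), a call lost without AA replicate 1 (adjusted p = 0.113) or AA replicate 2 (adjusted p = 0.0937).

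Prostaglandin breakdown and transport genes had called peaks in both directions. Hpgd, which encodes the enzyme that inactivates PGE2, had 16 peaks, with 1 higher and 1 lower. The higher one, 9020 bp from the gene, held 3.87 and 4.89 CPM with AA, 2.06 and 1.85 with PGE2 and 1.15 and 1.30 with vehicle (log2 1.15, SE 0.24, adjusted p = 0.00108, edgeR). The lower one, inside the gene, held 9.57 and 10 CPM with AA and 13.7 and 13.7 with PGE2 (log2 -0.49, SE 0.12) and was not called without AA replicate 1 (adjusted p = 0.100). Slco2a1, the prostaglandin uptake carrier, had 2 of 16 peaks higher, one of them at 5.21 and 6.20 CPM with AA, 2.75 and 2.93 with PGE2 and 1.61 and 2.06 with vehicle (log2 1.00, SE 0.20, adjusted p = 0.000802, edgeR). Ptgr2, a reductase of prostaglandin metabolites, had 2 of 5 peaks higher, and at one of them AA gave 6.12 and 6.04 CPM against 3.20 and 3.63 (log2 0.83, SE 0.18). Abcc4, an exporter of prostaglandins and cyclic AMP, had 27 peaks, 1 higher and 3 lower. Its start-site peak held 21.6 and 22.1 CPM with AA, 29.9 and 37.5 with PGE2 and 22.8 and 18.5 with vehicle (log2 -0.63, SE 0.10, adjusted p = 0.000333, edgeR), so that AA overlapped vehicle and PGE2 stood above.

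The receptor genes gave few and fragile calls. At the start site of Ptger3, AA gave 2.25 and 2.61 CPM, PGE2 3.97 and 4.63 and vehicle 3.91 and 3.28 (log2 -0.83, SE 0.22, adjusted p = 0.0112, edgeR). Leaving out AA replicate 1 (adjusted p = 0.159) ended the call, and so did leaving out PGE2 replicate 2 (adjusted p = 0.109). Within Ptger4, the gene of the receptor subtype best known in gut epithelium, a peak gave 5.84 and 6.20 CPM with AA, 4.81 and 3.24 with PGE2 and 7.12 and 6.33 with vehicle (log2 0.58, SE 0.18, adjusted p = 0.0369, edgeR). This Ptger4 peak was not called without AA replicate 1, AA replicate 2 or PGE2 replicate 2 (adjusted p = 0.120, 0.176 and 0.430), or without vehicle replicate 2 (adjusted p = 0.0517). Ptger1 and Ptger2 had no called peak among 2 and 3. Ptgdr, the receptor of prostaglandin D2, had a start-site peak with 1.69 and 2.20 CPM under AA and 3.36 and 3.32 under PGE2 (log2 -0.79, SE 0.25), which was not called when any of these 4 libraries was left out (adjusted p = 0.309, 0.0559, 0.0841 and 0.0976 without AA replicate 1, AA replicate 2, PGE2 replicate 1 and PGE2 replicate 2). The leukotriene enzyme genes Alox5 and Alox5ap had no called peak among 3 and 5.

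Wnt and beta-catenin targets were among the few lists with more distal peaks lower than higher with AA, 14 against 7 of 200 (7% lower and 3.5% higher, against 2.22% and 5.86% of all distal peaks), with a median of -0.09. DESeq2 called 1 lower and 1 higher. Sp5, a feedback repressor of Wnt signalling, had a peak inside the gene with 16.9 and 17.5 CPM under AA, 25.1 and 26.5 under PGE2 and 14.9 and 15.1 in vehicle (log2 -0.59, SE 0.10, adjusted p = 5.33e-05, edgeR). Axin2 had 2 of 15 peaks lower, Lef1 2 of 9 and Tnfrsf19 2 of 7, while Rnf43 had 2 of 13 higher and Cd44 1 of 15 higher. A peak 47856 bp from Sox9, a crypt factor, held 22.5 and 22.4 CPM with AA, 28.5 and 31.3 with PGE2 and 38.8 and 40.2 with vehicle (log2 -0.41, SE 0.08, adjusted p = 0.00109, edgeR; DESeq2 adjusted p = 0.117). Both agents lay below vehicle there, AA the farther. The Wnt counts were 8 lower and 1 higher without AA replicate 1, 6 and 5 without AA replicate 2 and 8 and 6 without PGE2 replicate 2. Crypt stem cell genes had 10 distal peaks lower and 9 higher of 257 (3.89% and 3.5%, against 2.22% and 5.86% of all distal peaks), and 7 gene-end peaks lower of 33 (21.2%), near the 17.1% of all gene-end peaks. That gene-end count was 0 without AA replicate 1 and 11 without PGE2 replicate 1. The distal stem cell counts were 5 lower and 2 higher without AA replicate 1, and 2 and 5 without AA replicate 2. Wnt3, a Wnt ligand made by Paneth cells, had 4 of 7 peaks lower and none higher.

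Genes of fatty acid desaturation and synthesis were divided. Of their 170 distal peaks 18 were higher and 10 lower (10.6% and 5.88%, against 5.86% and 2.22% of all distal peaks). Of 35 gene-end peaks none was higher and 5 lower (0 and 14 at an unadjusted p under 0.05 by edgeR, 0 and 3 by DESeq2), which is 14.3% against 17.1% of all gene-end peaks. Fads1, the desaturase that makes AA from its precursor, had 3 of 6 peaks lower. Its gene-end peak, which also lies near the listed start site of Fen1, held 24.1 and 24.0 CPM with AA, 33.0 and 39.2 with PGE2 and 29.0 and 27.6 with vehicle (log2 -0.59, SE 0.09, adjusted p = 1.51e-05, edgeR). The AA libraries lay below vehicle and the PGE2 libraries above. Fads2 had 1 of 5 peaks lower, Fads3 2 of 7 and Fasn 2 of 5, whereas Elovl6, an elongase, had 4 of 15 higher, Acsl3 3 of 5 and Mogat2, an enzyme of fat re-esterification, 3 of 7. The distal counts were 8 higher and 4 lower without AA replicate 1, 5 and 5 without AA replicate 2 and 11 and 6 without PGE2 replicate 1. Sterol genes had 10 distal peaks higher and 2 lower of 103 (9.71% and 1.94%), which became 2 and 0 without AA replicate 1 and 2 and 1 without AA replicate 2. Antioxidant genes had 10 and 3 of 150 (6.67% and 2.00%), near the 5.86% and 2.22% of all distal peaks, and 4 and 0 without AA replicate 1.

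The distal peaks that were lower with AA by the largest folds held few reads. A peak inside Gas1 held 1.20 and 1.55 CPM with AA, 3.13 and 5.32 with PGE2 and 1.38 and 1.30 with vehicle (log2 -1.63, SE 0.28, adjusted p = 0.000127, edgeR). Of the stronger ones, a peak inside Nsd1, a histone methyltransferase gene (chr13:55210693-55213097), held 22.3 and 24.7 CPM with AA, 36.5 and 46.6 with PGE2 and 15.6 and 14.4 with vehicle (log2 -0.82, SE 0.10, adjusted p = 6.54e-06, edgeR). The order differed inside Qsox2, a sulfhydryl oxidase gene, with 31.1 and 35.1 CPM under AA, 48.7 and 47.7 under PGE2 and 48.8 and 51.2 in vehicle (log2 -0.55, SE 0.07, adjusted p = 3.32e-06, edgeR). There PGE2 was level with vehicle and AA below. The largest distal differences in the other direction included peaks near Ckap2l (log2 1.72, SE 0.30), Il1f10, an interleukin family gene (log2 1.57, SE 0.23), and Azgp1 (log2 1.44, SE 0.20), all between 3.26 and 7.04 CPM under AA. At gene ends Gpr137c gave 16.8 and 18.5 CPM with AA against 7.33 and 7.72 with PGE2 and 7.04 and 7.93 with vehicle (log2 1.23, SE 0.12, adjusted p = 1.63e-08, edgeR).

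Loci with many called peaks in 1 direction were mostly higher with AA. Counting genes with at least 4 called peaks and none the other way, 66 were higher and 2 were lower, Wnt3 and Ptma. Of all distal peaks 5.86% were higher and 2.22% lower, so for loci of mostly distal peaks such a rule favours the higher side. The count was not tested against these shares. The 5 loci named next had 1 to 3 gene-end peaks each. Among the 66, Frmd8 had 9 of 17 peaks higher, Camk2d, a calcium-dependent kinase, 8 of 20, Por, the electron donor of cytochrome P450 enzymes, 8 of 15, Antxr2 7 of 14 and Coro2a 6 of 16.

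Lists of secretory and rare cell types had few called peaks. Against 5.86% higher and 2.22% lower of all distal peaks, goblet genes had 4 higher and 2 lower of 77 (5.19% and 2.60%), Paneth genes 0 and 3 of 39 (7.69% lower), enteroendocrine genes 1 and 1 of 30 (3.33% each), tuft genes 1 and 1 of 56, and interferon genes 1 and 1 of 62. For the Paneth list edgeR gave 2 higher and 3 lower distal peaks an unadjusted p under 0.05, and DESeq2 called 0. The enteroendocrine distal median was -0.23, against 0.02 for all distal peaks, and ran from -0.32 to -0.07 over the fits without 1 AA or PGE2 library. Its gene-end peaks had 1 higher and 2 lower of 14 (7.14% and 14.3%, against 1.6% and 17.1% of all gene-end peaks). Markers of other cells that a sort could leave were read from gene-end peaks. All 6 epithelial markers had one, and the strongest gene-end peaks of these genes summed to 385 CPM in both AA libraries and 372 and 389 in the PGE2 libraries. Of 9 stromal markers Vim alone had a gene-end peak, at 8.94 to 10.3 CPM over the 4 libraries. Of 8 immune markers 3 had one (Itgam, Cd68 and Cd14, summing to 65.5 to 68.6 CPM) while Ptprc and Cd3e had none, and of 6 endothelial markers Kdr alone did, at 2.82 to 3.73 CPM. edgeR called 0 of 26 stromal and 0 of 13 immune marker peaks, where 1 higher and 1 lower distal peak of each list had an unadjusted p under 0.05 and DESeq2 called 0, and it called 1 higher and 1 lower of 48 endothelial ones. Open chromatin at a gene need not mean that the gene is expressed.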

How the data were processed

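ATAC-seq libraries of vehicle, AA and PGE2 organoids (2 each) were compared from the authors' deposited table of read counts per peak, made with featureCounts 1.6.3 per the file headers. Trim Galore, BWA, Picard, SAMtools, MACS2 and the mm10 build are named in the submitters' processing notes. The table holds 90823 peaks and totals of 12374232 to 14236985 counts per library, with a median of 57 to 66 counts per peak; counts can include duplicates of a molecule, and the libraries' number limits the precision.

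Peaks passing edgeR's filterByExpr (89347, with 1476 left out) were fitted over all 6 libraries with TMM scaling (factors 0.969 to 1.02), and AA was compared with PGE2 by the quasi-likelihood test, adjusted by Benjamini-Hochberg over all tested peaks (edgeR 4.0.16, R 4.3.3, Python 3.11.15). The script was tested on simulated data. Residual degrees of freedom were 3, so single peaks borrow their spread from the rest. Gene ends are those of protein-coding genes in RefSeq (GRCm38.p6), and a peak's gene is the one with the nearest end within 50 kb, which need not be the gene it regulates. The list of start sites and promoters holds none on chromosome 18 and is not complete elsewhere. Of 701 names in 31 gene lists 3 were not matched.

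The members and lists were chosen with earlier results of these data known. The peaks named are, among called peaks of at least 1 mean log2 CPM without overlap between AA and PGE2 libraries, 1 per gene and class: the 8 with the largest difference and the 4 with the smallest p per class and direction, the one with the smallest p per list and direction, the eicosanoid genes with a call, and the 6 genes per direction with the most called peaks. Clone-like symbols were left out, and not all peaks so chosen are reported here. Alternatives were DESeq2 1.42.0, other scalings, filters and gene-end distances, the 4 libraries alone, a replicate block, and leaving out each library. Annotated gene ends without start sites were an alternative chosen after seeing the data.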

Additional observations from a re-analysis of the deposited data

How the results depend on the processing

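The gene-end median stayed negative under the alternatives run, while the distal median changed sign under 2 scalings given here. None of 115 named peaks changed direction. They were chosen as called peaks without overlap between AA and PGE2 libraries, so a change was hardly possible and its absence carries no weight. DESeq2's test called 8 gene-end peaks higher and 300 lower with AA and 221 distal peaks higher and 51 lower, and kept 33 of the 70 named peaks for which it gave an adjusted p. Gene-end and distal peaks scaled apart gave 1178 higher and 1610 lower gene-end peaks and medians of -0.0067 and -0.0093. The distal median was 0.0345 with the 4 libraries alone, 0.0350 with DESeq2 size factors, 0.0349 with DESeq2's test, 0.0331 with library totals, 0.0338 with loess offsets and -0.0027 with factors from distal peaks only. Gene ends within 2 kb gave 450 gene-end peaks higher. Over the fits without 1 library, gene-end peaks numbered 95 to 252 higher and 716 to 4450 lower, distal peaks 1734 to 4111 higher and 405 to 1597 lower, the medians ran from -0.143 to -0.0854 and from 0.019 to 0.034, and the difference in gene-end share from -3.64 to -1.94 percentage points. Without AA replicate 1, 79 of 115 named peaks kept their call, and without AA replicate 2, PGE2 replicate 1 and PGE2 replicate 2, 90, 106 and 94 did. Why these values moved was not tested. With the replicate number as a block the counts were 258 and 3096 at gene ends and 4271 and 1659 distal. Deviations of same-numbered libraries correlated at 0.0054, -0.025 and 0.042. Such values cannot show whether same-numbered libraries shared a culture or batch, which is not stated. A lone library left in a group is assumed to vary like the others, and 2 libraries per group cannot give an exact p below 0.333.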

Other observations

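Respiratory chain genes had 6 of 60 distal peaks higher with AA and none lower (10%, against 5.86% of all distal peaks). Of their 29 gene-end peaks 3 were lower and none higher (10.3% lower, against 17.1% of all gene-end peaks). Their distal median was -0.024, so the calls and the median of the list differ in sign. Atp5o and Uqcrfs1, subunits of ATP synthase and complex III, had 2 of 9 and 2 of 6 peaks higher. The distal count was 2 without AA replicate 1, 1 without AA replicate 2, 2 without PGE2 replicate 1 and 3 without PGE2 replicate 2. DESeq2 called 0 of these peaks, and 10 higher and 5 lower had an unadjusted p under 0.05 by edgeR. Proteasome genes had 2 of 43 distal peaks higher and 2 lower (4.65% each, against 5.86% and 2.22%), and 3 of 30 gene-end peaks lower (10%, against 17.1%).

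Epithelial marker genes, used to check the sort, held called peaks themselves. The strongest gene-end peak of Cdh1, the E-cadherin gene, gave 41.7 and 45.4 CPM with AA, 54.0 and 52.9 with PGE2 and 39.4 and 39.4 with vehicle (log2 -0.30, adjusted p = 0.0025, edgeR). That of Krt19, a keratin of simple epithelia, gave 83.7 and 82.9 CPM with AA, 70.4 and 74.0 with PGE2 and 76.3 and 80.6 with vehicle (log2 0.21, adjusted p = 0.0115, edgeR). These were lost in part when a library was left out: of 8 gene-end marker peaks 2 were higher and 2 lower with all libraries, and 0 and 0 without AA replicate 1.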
